A study of Mus musculus with 15 samples.

Results

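Acetylation of histone H3 at lysine 27 (H3K27ac) was compared here between D-EPSCs and L-EPSCs, mouse stem cells held in either of 2 expanded potential culture conditions. The members were all 32782 peaks of the D-EPSC list and all 26966 peaks of the L-EPSC list, 59748 of the 439369 peaks in the series' 6 lists, and each peak was sorted by whether it overlapped a peak of the other list by at least 1 base. The series holds ChIP-seq of H3K4me1 and H3K27ac in both of these states and in embryonic stem cells (ESCs), from 2 samples per mark and 1 input in each state. The question was which genes and loci acetylation separated between both expanded potential conditions. One peak list was analysed per state and mark, so no test over replicates was possible, and every difference below is a description of 2 lists.

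All cells carried the background of J1, a mouse ESC line of strain 129SV, and the labels name no edited gene. Both EPSC states were converted from this 1 line, so other lines are not covered. D-EPSCs grew in N2B27 medium with 5% KnockOut Serum Replacement (KSR), LIF at 1000 units per ml, 3 µM of the GSK3 inhibitor CHIR99021, 2 µM dimethindene maleate (DiM), an antihistamine, and 2 µM minocycline hydrochloride (MiH), an antibiotic that also inhibits PARP1. L-EPSCs grew in DMEM/F12 with 20% KSR, LIF at 1000 units per ml, 3 µM CHIR99021, 1 µM of the MEK inhibitor PD0325901, 0.3 µM of the SRC family inhibitor A-419259, 5 µM of the tankyrase inhibitor XAV939, 4 µM JNK inhibitor VIII and 10 µM of the p38 inhibitor SB203580. Both media thus held LIF and CHIR99021, and the MEK inhibitor was in the L-EPSC medium and not in the D-EPSC medium. ESCs, used below for context only, grew in 15% serum with LIF at 1000 units per ml, 3 µM CHIR99021 and 1 µM PD0325901. Base medium, serum replacement and inhibitors differed together, so their parts in a difference cannot be told apart. H3K27ac was precipitated in all 3 states with the antibody ab4729.

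H3K27ac marks active promoters and enhancers, where acetyltransferases such as p300 and CBP place it and deacetylases remove it. H3K4me1 lies over enhancers whether or not they are active, so an enhancer with both marks is commonly read as active and one with H3K4me1 alone as primed. In stem cells of the early embryo the mark clusters over pluripotency genes, and signalling pathways such as WNT, LIF and FGF to ERK change which enhancers carry it. A peak is a stretch where the caller found more reads than in the input. The absence of a listed peak says that the threshold was not met, not that acetylation was absent.

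The stem cell label was checked first. Of 9 stem cell markers, 8 had a peak within 1 kb of the annotated start site in D-EPSCs and the same number in L-EPSCs, with 131 kb of peaks at their loci in D-EPSCs against 138 kb in L-EPSCs. Pou5f1, the core pluripotency factor, had 13.3 kb in D-EPSCs against 12.1 kb in L-EPSCs, and Nanog had 12.6 and 12.7 kb. None of 10 fibroblast, 7 trophoblast and 6 primitive endoderm markers had a start-site peak in either list, and their loci summed to 4.3, 1.43 and 0.744 kb in D-EPSCs and to 2.93, 1.34 and 0.896 kb in L-EPSCs. The fibroblast markers Thy1, Postn, Twist1, Twist2, Prrx1 and Dcn had 0 bases in both lists. Col1a1 had 1.03 kb in D-EPSCs against 1.89 kb in L-EPSCs, Col3a1 had 1.93 and 1.03 kb, and Col1a2 and Lum had bases in D-EPSCs only.

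The sequences below show acetylated DNA that separated the lists. The start sites are those of list genes whose 250 bases before the start lay wholly inside a peak of 1 list, held no annotated exon and met no peak of the other list, and they were picked for the roles of their genes: Dusp4 and Etv4, both induced by ERK signalling, Smad3, a transducer of Nodal and activin signals, Map2k1, which encodes the MEK1 kinase that PD0325901 inhibits, and Stra8, a retinoic acid induced gene of the germline. Each is given 5′ to 3′ on the strand of its gene, build mm9, with CpG-rich sequence at Dusp4, where the 250 bases hold 24 CpG, and fewer CpG at Etv4 (9) and Stra8 (7). Capitals mark matches to the motifs spelled out at the end, and none of the 5 windows before a start site holds one. The windows of Idh3a, Maff and Eef1a1 met the same rule and are not shown. They do hold matches, to ETS at Idh3a, KLF at Maff, and Zfp281 and KLF at Eef1a1. The first 4 are start sites of D-EPSC peaks, at chr8:35870101-35870350 (plus strand), chr11:101646686-101646935, chr9:63605802-63606051 and chr9:64101439-64101688 (minus strand), and the last, at chr6:34869913-34870162 (plus strand), is one of an L-EPSC peak.
Dusp4: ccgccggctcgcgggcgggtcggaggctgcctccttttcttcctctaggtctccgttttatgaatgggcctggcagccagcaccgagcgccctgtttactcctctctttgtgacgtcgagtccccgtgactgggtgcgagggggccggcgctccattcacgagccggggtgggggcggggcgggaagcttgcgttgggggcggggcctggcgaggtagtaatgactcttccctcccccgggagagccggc
Etv4: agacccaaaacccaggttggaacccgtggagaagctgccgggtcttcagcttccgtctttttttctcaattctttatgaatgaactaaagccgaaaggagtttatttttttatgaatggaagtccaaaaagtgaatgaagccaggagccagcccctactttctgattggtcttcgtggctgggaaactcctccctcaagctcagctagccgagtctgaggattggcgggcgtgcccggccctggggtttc
Smad3: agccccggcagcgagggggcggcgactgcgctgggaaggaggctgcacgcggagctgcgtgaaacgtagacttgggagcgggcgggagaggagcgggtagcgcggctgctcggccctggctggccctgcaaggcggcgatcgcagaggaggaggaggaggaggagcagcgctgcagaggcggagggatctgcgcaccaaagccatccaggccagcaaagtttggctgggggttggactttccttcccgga
Map2k1: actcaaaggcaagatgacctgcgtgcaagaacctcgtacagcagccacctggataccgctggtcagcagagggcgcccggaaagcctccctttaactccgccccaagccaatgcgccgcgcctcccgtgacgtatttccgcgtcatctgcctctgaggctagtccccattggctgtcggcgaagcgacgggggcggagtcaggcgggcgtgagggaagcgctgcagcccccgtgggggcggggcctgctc
Stra8: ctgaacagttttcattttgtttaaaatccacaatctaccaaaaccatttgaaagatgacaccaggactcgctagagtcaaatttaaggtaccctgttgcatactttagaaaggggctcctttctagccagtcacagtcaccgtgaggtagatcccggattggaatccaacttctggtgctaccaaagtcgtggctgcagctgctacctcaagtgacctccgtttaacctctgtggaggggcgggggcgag

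Away from start sites, the central 300 bases are shown of peaks that were among the 5 widest of their list with no peak of the other list within 10 kb, on the plus strand of mm9. The widest in D-EPSCs lay outside protein-coding genes, 9759 bases from the start of Optn, which encodes an autophagy receptor, and its centre was chr2:4998973-4999272. The widest and the next but 1 in L-EPSCs lay in Mras, which encodes a RAS family GTPase, with centres at chr9:99323345-99323644 and chr9:99315382-99315681. The fourth, at chr9:57889368-57889667, lay in Ccdc33, 19203 bases from the start of Stra6, which encodes a retinol transporter. No exon base fell in these 4 windows.
Near Optn, D-EPSC: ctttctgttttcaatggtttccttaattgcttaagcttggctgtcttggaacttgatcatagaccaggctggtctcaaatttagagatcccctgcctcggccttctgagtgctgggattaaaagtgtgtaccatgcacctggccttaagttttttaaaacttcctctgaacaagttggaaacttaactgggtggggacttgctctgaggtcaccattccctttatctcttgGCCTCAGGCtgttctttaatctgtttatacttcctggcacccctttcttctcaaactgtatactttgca
Mras widest, L-EPSC: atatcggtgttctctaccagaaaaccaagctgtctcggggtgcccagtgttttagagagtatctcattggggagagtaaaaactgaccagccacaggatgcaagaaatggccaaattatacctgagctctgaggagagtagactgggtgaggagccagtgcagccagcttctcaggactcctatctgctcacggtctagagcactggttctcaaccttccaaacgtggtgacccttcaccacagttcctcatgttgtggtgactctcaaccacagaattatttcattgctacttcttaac
Mras further, L-EPSC: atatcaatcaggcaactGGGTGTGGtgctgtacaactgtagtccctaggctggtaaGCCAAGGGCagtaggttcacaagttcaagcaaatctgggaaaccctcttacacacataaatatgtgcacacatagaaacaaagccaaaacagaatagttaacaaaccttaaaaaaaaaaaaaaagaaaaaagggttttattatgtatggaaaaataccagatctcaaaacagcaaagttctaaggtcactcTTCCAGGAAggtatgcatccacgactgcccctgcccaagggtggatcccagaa
Ccdc33, L-EPSC: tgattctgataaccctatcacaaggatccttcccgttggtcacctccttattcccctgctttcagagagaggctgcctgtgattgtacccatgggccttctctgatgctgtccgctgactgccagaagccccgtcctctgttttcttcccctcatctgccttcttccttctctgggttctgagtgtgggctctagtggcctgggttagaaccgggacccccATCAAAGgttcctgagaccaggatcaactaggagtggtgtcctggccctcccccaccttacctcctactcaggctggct

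The D-EPSC list covered 44.4 Mb with a median peak width of 830 bases, and the L-EPSC list covered 34.3 Mb with a median of 744. In D-EPSCs, 13537 peaks (41.3% of the list) met no L-EPSC peak, and they held 21.6% of the list's bases, being narrow, with a median of 532 bases against 1219 for the shared peaks. In L-EPSCs, 6747 peaks (25.0%) met no D-EPSC peak and held 4.29 Mb, with a median of 474 bases against 907. Most unshared peaks of L-EPSCs lay beside acetylation of D-EPSCs: 32.9% had no D-EPSC peak within 10 kb, whereas 54.0% of the unshared D-EPSC peaks had no L-EPSC peak that near. Joined over both lists, the peaks formed 38489 regions, of which 18207 (47.3%) held both. Within those, D-EPSCs covered more bases in 65.0%, with a median log2 ratio of D-EPSC to L-EPSC bases of 0.24. Depth is unknown from peak positions, and no interval on these counts was formed.

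Where the unshared peaks lay differed. Of the unshared D-EPSC peaks, 12.4% lay within 1 kb of a protein-coding start site, 48.9% elsewhere in a gene and 38.6% outside genes. For unshared L-EPSC peaks these shares were 5.47%, 44.8% and 49.8%. Shared peaks lay at start sites in 28.0% of cases for D-EPSCs and 26.8% for L-EPSCs. In the other lists, 78.8% of unshared D-EPSC peaks overlapped H3K4me1 of D-EPSCs and 72.7% overlapped H3K4me1 of L-EPSCs, and for unshared L-EPSC peaks these were 73.8% and 87.0%. H3K4me1 thus lay under most unshared peaks also in the state with no H3K27ac peak there. ESC H3K27ac overlapped 68.6% of the unshared D-EPSC peaks and 71.1% of the unshared L-EPSC peaks, against 90.6% and 90.4% of the shared ones.

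Of 22350 protein-coding genes, 7892 had a peak within 1 kb of the start in D-EPSCs against 6440 in L-EPSCs. Both lists held 6087 of these start sites. A further 1805 (8.08% of genes) were acetylated in D-EPSCs only and 353 (1.58%) in L-EPSCs only. The D-EPSC peaks at the 1805 sites were narrow, with a median of 551 bases against 1156 at sites held by both, and 71.0% of these sites had no L-EPSC peak within 10 kb. The L-EPSC peaks at the 353 sites had a median of 478 bases, and 46.5% had no D-EPSC peak within 10 kb. H3K4me1 was listed at 98.3% of the former sites in the D-EPSC list and 98.4% in the L-EPSC list. Each gene had 1 start site, the outer 5′ end of its annotated record. Other promoters of a gene were not examined, so a start-site peak in 1 list only concerns that outer start.

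Whole loci were then compared, each taken as the gene with 10 kb on either side and called where a list covered at least 2-fold and at least 1 kb more bases. D-EPSCs had more at 2809 loci (12.6% of genes) and L-EPSCs at 477 (2.13%). Among the 9447 loci with at least 1 kb in either list these were 29.7% and 5.05%, and the median difference was 0.889 kb more in D-EPSCs. These shares are the background for the calls in each gene list below. How many of all loci simply had more bases in D-EPSCs was not counted, so such counts per gene list lack a background. Neighbouring loci overlap, so a peak can count for more than 1 gene.

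**Figure D1:**
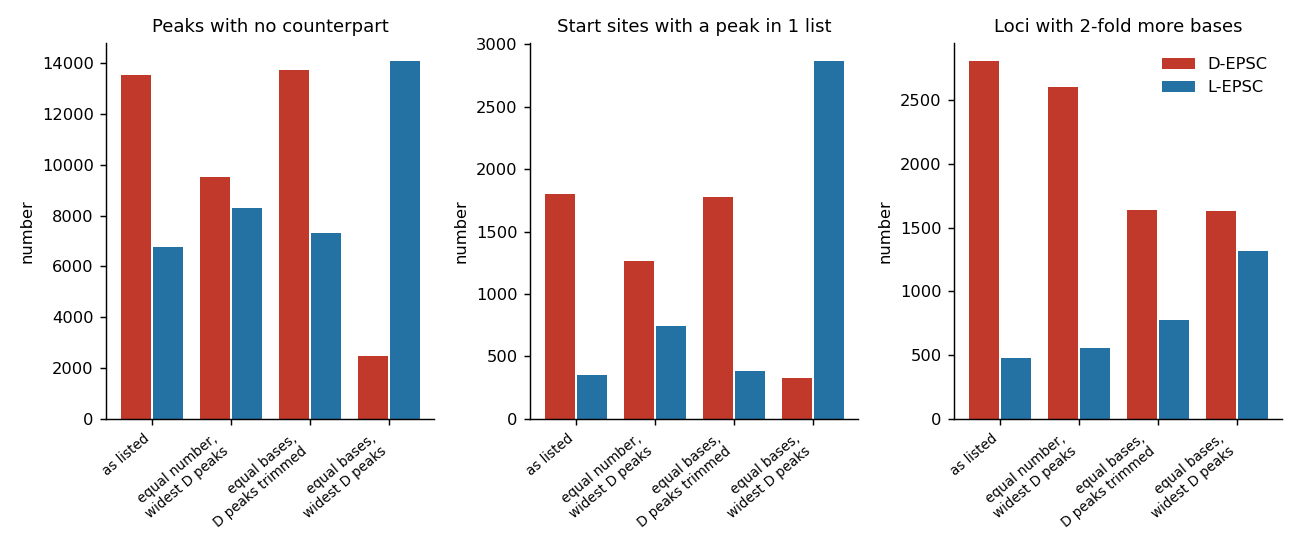
Number of peaks with no counterpart (left), protein-coding start sites with a peak in 1 list only (middle) and loci with at least 2-fold and 1 kb more acetylated bases (right), for D-EPSC (red) and L-EPSC (blue), from the lists as deposited, with the widest 26966 D-EPSC peaks, and with covered bases made equal in either of 2 ways. The D-EPSC excess of start sites is 1805 to 353 as listed, 1781 to 383 with trimmed peaks, and 331 to 2870 with the widest D-EPSC peaks.

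The size of these counts, and the direction of some, depended on how list length was made equal. Covered bases were made equal first by trimming each D-EPSC peak at both ends by a common factor. The loci called were then 1640 in D-EPSCs against 772 in L-EPSCs, and the start sites 1781 and 383. They were made equal also by keeping only the 13675 widest D-EPSC peaks, all at least 1015 bases wide. The loci were then 1631 and 1316, and the start sites turned to 331 in D-EPSCs only and 2870 in L-EPSCs only, as narrow promoter peaks left the D-EPSC list and stayed in the L-EPSC list. Of the 2809 loci called for D-EPSCs as listed, 1229 (43.8%) were called in both equal forms. All 477 called for L-EPSCs were too, which the forms guarantee because they only take D-EPSC bases away. A locus is described below as robust where it kept its D-EPSC call in both forms. Unless a form is given, calls below are those of the lists as deposited, and loci called for L-EPSCs only in an equal form are not named. Over the 9447 loci, the median difference was still 0.204 kb more in D-EPSCs with the widest and 0.26 kb more with trimmed D-EPSC peaks.

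Targets and feedback regulators of ERK, the kinase that MEK activates, carried more acetylation in D-EPSCs. Of 18 such genes, 16 had more bases in D-EPSCs against 1 in L-EPSCs, 7 were called for D-EPSCs and none for L-EPSCs, and 5 of the 7 were robust. The median difference over the 14 loci with at least 1 kb was 2.29 kb. With trimmed D-EPSC peaks, 13 had more bases in D-EPSCs against 4 in L-EPSCs, and with the widest D-EPSC peaks 13 and 2. Dusp4, a nuclear phosphatase that inactivates ERK (chr8:35870351-35882948), had a D-EPSC peak of 3.14 kb from 2.19 kb before to 0.947 kb after its start, over the sequence shown above. It had 0 kb in L-EPSCs, whose nearest peak was 78353 bases from the start, and 0 kb in ESCs. Etv4, an ETS factor induced by FGF signals (chr11:101631056-101646685), had 3.65 kb in D-EPSCs against 0 kb in L-EPSCs. A D-EPSC peak of 2735 bases lay across its start. Unlike Dusp4, Etv4 had ESC peaks at its locus, of 1004 bases upstream of the start, partly under that D-EPSC peak, and of 1152 bases in the gene.

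The Sprouty genes encode feedback inhibitors of receptor tyrosine kinase signalling. Spry2 had 6.84 kb in D-EPSCs against 1.61 kb in L-EPSCs. Spry4 had 5.84 and 1.71 kb. Spry1 had 0.622 and 0 kb and a start-site peak in D-EPSCs only, as did Dusp5, a further ERK phosphatase, with 0.645 and 0.311 kb. Dusp4, Dusp5, Spry1 and Etv4 were the 4 start sites of this list acetylated in D-EPSCs only, and none was in L-EPSCs only. Spred2 was the member with more bases in L-EPSCs, at 23.7 kb against 23.2 kb. H3K4me1 covered 12.7 kb of the Dusp4 locus in D-EPSCs against 8.89 kb in L-EPSCs, and 21.8 and 8.46 kb at Etv4.

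AP-1 factors, which act downstream of ERK and JNK, were less one-sided. Of 9, 5 had more bases in D-EPSCs against 4 in L-EPSCs, which turned to 4 and 5 in both equal forms (median 0.937 kb over 8 loci). Fosl1 alone was called as listed, at 1.22 kb in D-EPSCs against 0 kb in L-EPSCs, and it lost the call with trimmed peaks. With the widest D-EPSC peaks, 3 loci of this list were called for L-EPSCs against 1 for D-EPSCs. Start-site peaks in D-EPSCs only lay at Junb and Maff, and the L-EPSC peak nearest to the Junb start was 1032 bases away, just outside the window. FGF ligands and receptors had 8 of 11 loci with more bases in D-EPSCs and 1 with more in L-EPSCs, but 3 and 6 with the widest and 5 and 4 with trimmed D-EPSC peaks (median 1.72 kb over 8 loci). Fgf17 (5.54 and 1.66 kb) and Fgf10 (1.38 and 0 kb), both FGF ligands, were called and robust.

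**Figure D2:**
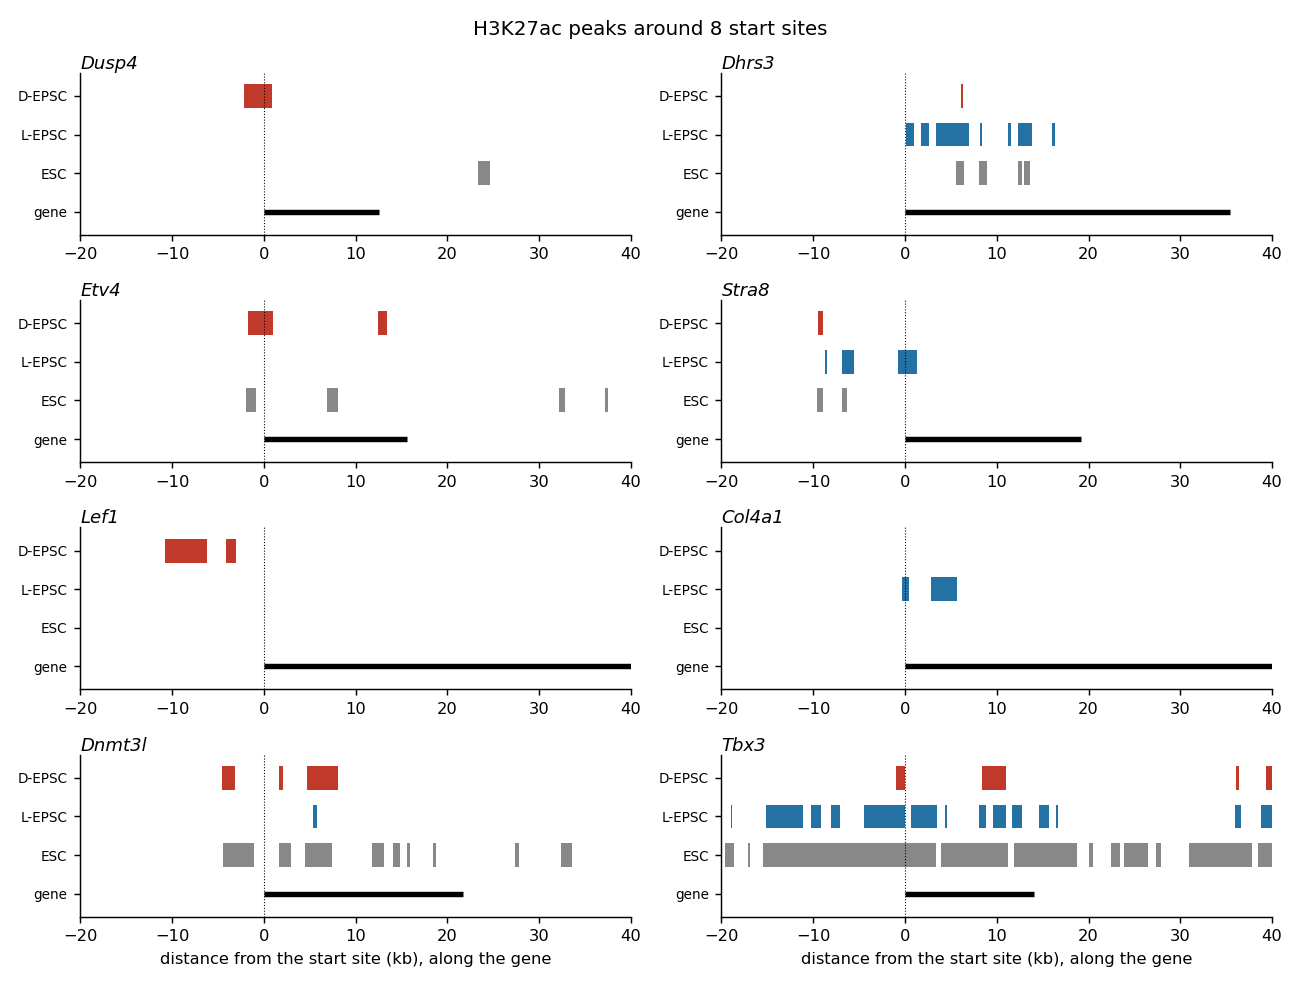
H3K27ac peaks of D-EPSC (red), L-EPSC (blue) and ESC (grey) drawn by distance in kb from the start site of 8 genes, along the direction of transcription, with the gene body in black up to the edge of the window. D-EPSC peaks lie at the Dusp4 and Etv4 starts and upstream of Lef1 with no L-EPSC peak in the window, and L-EPSC peaks cross the Stra8 and Col4a1 starts, where D-EPSC has none.

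WNT signalling was read from target genes and from pathway components. Of 13 targets, 5 had more bases in D-EPSCs against 2 in L-EPSCs, which turned to 3 and 4 in both equal forms, and 6 had none in either list (median 0.687 kb over 6 loci). Lef1, a WNT effector and target (chr3:130813389-130927274), had 5.90 kb in D-EPSCs. Of its D-EPSC peaks, 3 lay between 10.8 and 3.08 kb upstream of the start, the widest of 3698 bases, and the rest of the bases lay further into the gene. It had 0 kb in L-EPSCs and 0 kb in ESCs, and the call was robust. H3K4me1 covered 42.5 kb of the Lef1 locus in D-EPSCs against 14.8 kb in L-EPSCs. Znrf3, a ligase that removes WNT receptors, had 9.74 and 3.96 kb and lost the call in both equal forms. Tcf7, which encodes the effector TCF1, and Tnfrsf19 had start-site peaks in D-EPSCs only. Axin2, a widely used readout of WNT signalling, had 0.391 kb in D-EPSCs against 0.370 kb in L-EPSCs with a start-site peak in both.

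Of 10 WNT pathway components, 5 had more bases in D-EPSCs against 3 in L-EPSCs, which turned to 3 and 5 with the widest and 2 and 6 with trimmed D-EPSC peaks (median 0.349 kb over 7 loci). Ctnnb1, which encodes β-catenin, was called at 4.40 and 1.88 kb but not in either equal form. The genes that encode targets of the compounds in the media numbered 20, of which 15 had more bases in D-EPSCs against 2 in L-EPSCs, against 7 and 10 with the widest and 10 and 7 with trimmed D-EPSC peaks (median 0.895 kb over 14 loci). Map2k1 had 15.6 kb in D-EPSCs against 9.70 kb in L-EPSCs, with a start-site peak in D-EPSCs only and the nearest L-EPSC peak 14353 bases away. Gsk3a, which encodes a GSK3 kinase, also had a start-site peak in D-EPSCs only. Mapk9, which encodes a JNK, was called for D-EPSCs at 1.63 and 0.340 kb, but lost the call in both equal forms and had -0.34 kb, more in L-EPSCs, with the widest D-EPSC peaks. Fyn, an SRC family kinase gene (chr10:39088661-39285187), was called for L-EPSCs at 0.883 kb in D-EPSCs against 7.31 kb in L-EPSCs.

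LIF maintains naive stem cells through STAT3. Among 11 genes of that axis, 9 had more bases in D-EPSCs against 2 in L-EPSCs, with 5 and 3 for the widest and 7 and 4 for trimmed D-EPSC peaks (median 1.54 kb over 8 loci). Lif, the ligand, had 4.93 kb in D-EPSCs against 1.57 kb in L-EPSCs, was robust and had a start-site peak in D-EPSCs only. Jak2, which encodes a receptor-associated kinase, had 1.53 and 0.279 kb and lost the call with trimmed peaks. Jak1 had a start-site peak in D-EPSCs only, with 0.471 kb at the locus against 0. For Nodal and BMP signalling, 9 of 12 loci had more bases in D-EPSCs against 3 in L-EPSCs, which evened out at 5 and 5 with the widest and 6 and 6 with trimmed D-EPSC peaks (median 0.642 kb over 10 loci). Skil, a SMAD repressor and target, had 5.78 and 2.11 kb, and was robust. Bmp4, the ligand, had 1.11 and 0 kb with a start-site peak in D-EPSCs only, and lost the call in both equal forms. Smad3 had 3.78 and 3.80 kb, and its start-site peak was in D-EPSCs only, so the lists differed in where the bases lay and not in how many.

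Pluripotency genes were acetylated in both conditions. Of 17 general pluripotency genes, 16 had a start-site peak in D-EPSCs against 15 in L-EPSCs. Lin28a, which encodes an inhibitor of let-7 processing, made the difference, at 2.25 kb in D-EPSCs against 0.226 kb in L-EPSCs, and was robust. Zic2 (8.69 and 3.90 kb), which encodes a zinc finger factor, was called for D-EPSCs but lost the call with trimmed peaks. As listed, 12 of the 17 had more bases in D-EPSCs against 5 in L-EPSCs, which turned to 8 and 9 with the widest and 6 and 11 with trimmed D-EPSC peaks. The median difference over the 17 loci was 1.31 kb.

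The 12 naive pluripotency genes were divided. As listed, 6 had more bases in each condition, and L-EPSCs had more at 8 with the widest and 7 with trimmed D-EPSC peaks (median 0.263 kb over 12 loci). Tbx3, a T-box factor of naive cells (chr5:120120678-120134733), had 3.59 kb in D-EPSCs against 13.9 kb in L-EPSCs, with 28.9 kb in ESCs. Esrrb, a nuclear receptor, had 41.4 and 47.6 kb, Klf4 had 1.91 and 3.74 kb and Tfcp2l1 had 14.8 and 16.7 kb, none of which was called. For D-EPSCs, Tfap2c (4.89 and 1.58 kb) and Nr0b1 (1.49 and 0 kb) were called and robust. Dppa3 (1.75 and 0 kb) and Klf5 (2.83 and 1.11 kb) were called but not robust. Start-site peaks lay in D-EPSCs only at Nr0b1 and Dppa3 and in L-EPSCs only at Tcl1.

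Among 11 formative and primed epiblast genes, 5 had more bases in D-EPSCs, 1 in L-EPSCs and 5 none in either (median 3.07 kb over 4 loci). More bases were in D-EPSCs at 3 against 2 with the widest and at 5 against 1 with trimmed D-EPSC peaks. Otx2, which directs the exit from naive pluripotency, had 10.8 and 4.99 kb and a start-site peak in D-EPSCs only, but its call was lost in both equal forms. Grhl2 (3.39 and 0 kb), an epithelial factor, and Cdh2 (2.75 and 0 kb), which encodes N-cadherin, were robust, although their D-EPSC peaks lay 9026 and 137836 bases from the start.

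Genes of DNA methylation had more acetylated bases in D-EPSCs at 11 of 12 loci and more in L-EPSCs at none. The median difference over the 10 loci with at least 1 kb was 3.19 kb. Dnmt1, the maintenance methyltransferase, had 7.56 kb in D-EPSCs against 2.79 kb in L-EPSCs. Dnmt3l, the cofactor of the de novo enzymes (chr10:77504692-77526367), had 5.22 and 0.474 kb. A D-EPSC peak of 3376 bases lay from 4.71 to 8.09 kb after its start, where L-EPSCs had one of 474 bases. ESCs also had a peak there, of 2846 bases from 4.54 to 7.39 kb, and further peaks at the locus. Tdg, a glycosylase of active demethylation, had 5.60 and 1.80 kb. Uhrf1, which brings Dnmt1 to replicating DNA, had 3.17 and 1.43 kb. Dnmt3b, a de novo methyltransferase and the fifth of the 5 called loci, had 1.42 and 0 kb and was named after its values were seen. Of these, 4 were robust and Uhrf1 was not. With trimmed D-EPSC peaks, 7 loci had more bases in D-EPSCs against 4 in L-EPSCs, and with the widest peaks 9 and 2. All start-site peaks of the list were shared, 8 in each.

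Of 19 imprinted genes, 12 had no peak in either list, 5 had more bases in D-EPSCs against 2 in L-EPSCs (median 0.758 kb over 4 loci). With the widest D-EPSC peaks the latter counts were 3 and 2, and with trimmed ones 5 and 2. Grb10, an adaptor that restrains insulin signalling (chr11:11830511-11938686), had 6.43 kb in D-EPSCs against 14.6 kb in L-EPSCs. Impact, a regulator of translation, had 3.53 and 1.37 kb and lost the call with trimmed peaks. Of 10 germline genes, 3 had more bases in D-EPSCs and none in L-EPSCs as listed and with trimmed peaks, against 1 and 1 with the widest D-EPSC peaks. Piwil2, a piRNA pathway gene, was called for D-EPSCs at 1.90 and 0 kb, and Dazl, which encodes an RNA-binding protein of germ cells, had a start-site peak in D-EPSCs only.

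Genes of retinoic acid metabolism and response held 3 of the 10 list loci called for L-EPSCs. Of 18, 6 had more bases in D-EPSCs, 4 in L-EPSCs and 8 none in either, which turned to 3 and 6 with the widest and 4 and 6 with trimmed D-EPSC peaks. The median difference over 9 loci was 1.06 kb more in D-EPSCs. Dhrs3, a reductase that returns retinal to retinol (chr4:144482730-144518112), had 0.504 kb in D-EPSCs against 8.04 kb in L-EPSCs, where 7 peaks lay between 0.109 and 16.3 kb after the start and the widest was of 3596 bases. ESCs had 2.74 kb there. Stra8 (chr6:34870163-34889342) had 0.603 and 3.56 kb, with an L-EPSC peak of 2040 bases across the start shown above.

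Rara, which encodes the retinoic acid receptor α, had a start-site peak in L-EPSCs only, with 10.8 kb at the locus in D-EPSCs against 9.65 kb in L-EPSCs. Rara was not called. The receptor genes that were called, Rarb (3.67 and 1.55 kb) and Rxra (5.53 and 2.76 kb), had more in D-EPSCs, and both lost the call in both equal forms. The targets Cyp26a1, Cyp26b1 and Hoxb1 had 0 kb in both lists. H3K4me1 covered 6.84 kb of the Dhrs3 locus in D-EPSCs against 18.1 kb in L-EPSCs.

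Lineage genes were mostly without peaks. Of 16 primitive endoderm genes, 9 had no peak in either list, 2 had more bases in D-EPSCs against 5 in L-EPSCs, and the counts were the same in both equal forms. The median difference over 6 loci was -2.29 kb, more in L-EPSCs. Col4a1 and Col4a2 encode chains of basement membrane collagen IV and are transcribed away from each other, so their loci share peaks. Col4a1 (chr8:11198423-11312826) had 0.519 kb in D-EPSCs against 4.03 kb in L-EPSCs, and Col4a2 had 0 and 3.54 kb. A 776-base L-EPSC peak lay across both starts and one of 2765 bases lay 2.88 kb into Col4a1, and the nearest D-EPSC peak was 45713 bases from the Col4a1 start. Hnf4a (2.97 and 1.43 kb) and Cubn (3.00 and 0.976 kb), which encodes an endocytic receptor of visceral endoderm, were called for D-EPSCs, and Cubn was robust. Gata6, Sox17, Sox7, Pdgfra and Foxa2, which mark the lineage, had 0 kb in both.

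Of 14 trophoblast genes, 5 had more bases in D-EPSCs against 1 in L-EPSCs, which turned to 2 and 3 with the widest D-EPSC peaks and was 4 and 2 with trimmed ones (median 2.79 kb over 3 loci). Tead4, a factor that specifies trophectoderm, had 5.45 and 1.72 kb and was robust, with its nearest D-EPSC peak 3928 bases from the start. Ets2 had a start-site peak in D-EPSCs only, with 0.655 and 0 kb at the locus. Of 12 gastrulation genes, 3 had more bases in D-EPSCs against 2 in L-EPSCs, which turned to 0 and 4 with the widest and 2 and 3 with trimmed D-EPSC peaks, and Bmp4, described above, was called as listed only (median 0.12 kb over 2 loci). None of 8 markers of the 2-cell stage had a start-site peak in either list, with 0.788 kb in all in D-EPSCs against 0.813 kb in L-EPSCs. The 16 genes of the wider fibroblast list had 1 start-site peak in each list and no call (median 0.184 kb over 3 loci). Their loci summed to 16.1 kb in D-EPSCs against 14.5 kb in L-EPSCs.

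**Figure D3:**
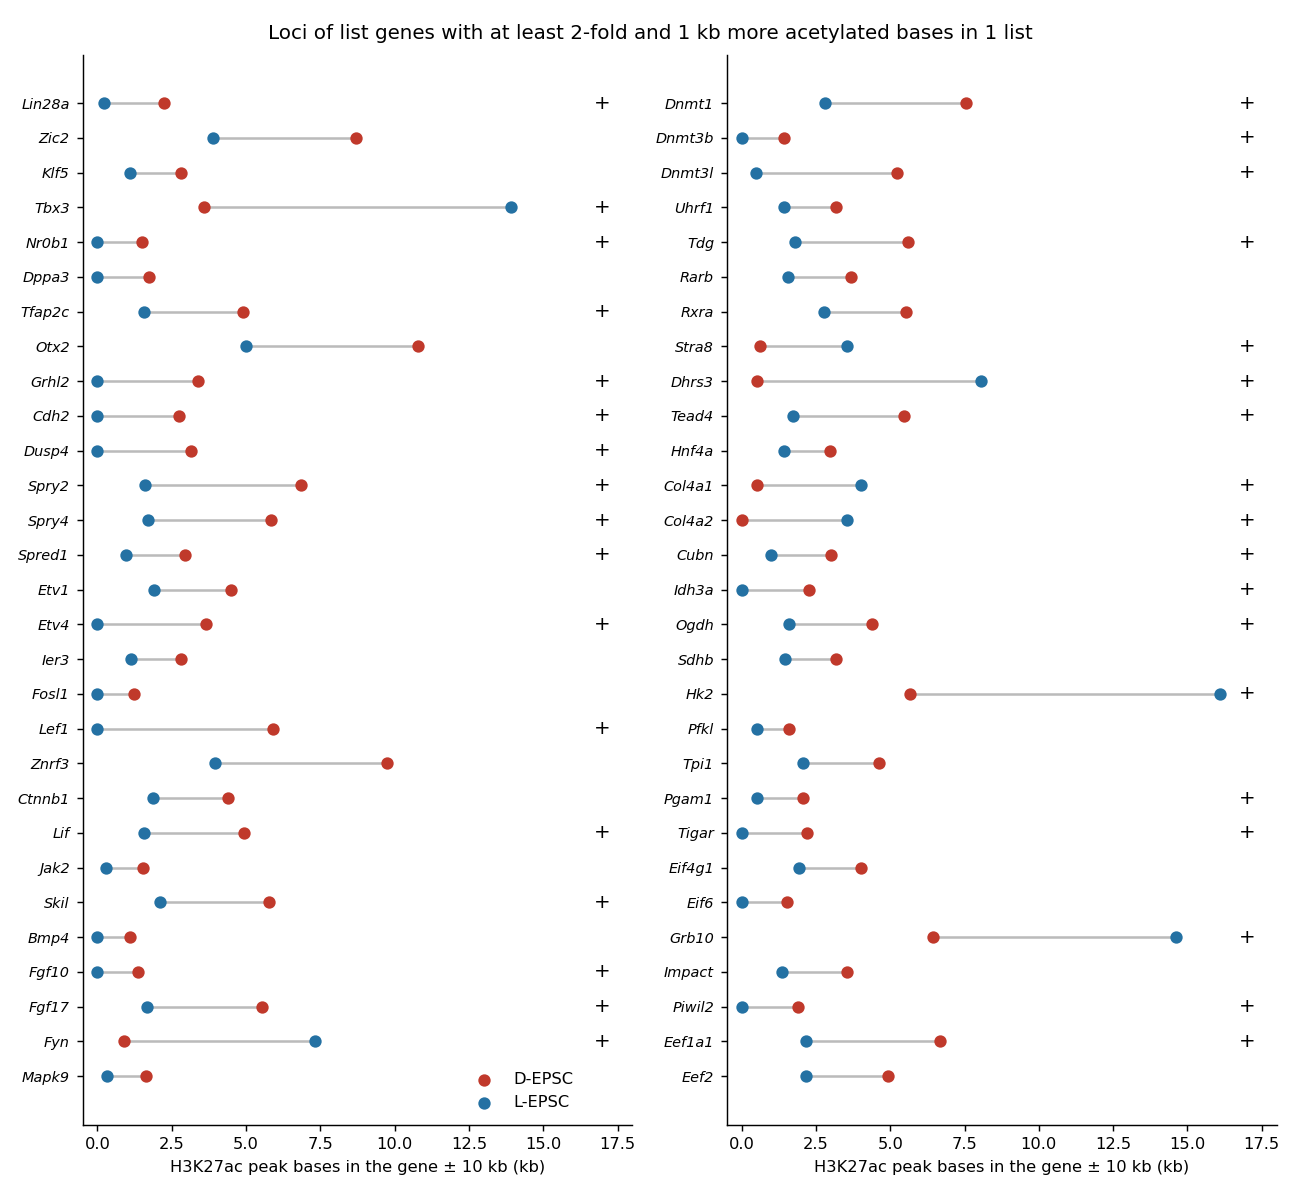
Acetylated bases (kb) in the gene with 10 kb on either side for D-EPSC (red) and L-EPSC (blue) at called loci of the gene lists other than ribosomal protein genes, in the order of the lists. A plus sign marks calls kept in both equal forms, which L-EPSC calls keep by construction. Blue lies to the right of red at Tbx3, Fyn, Stra8, Dhrs3, Col4a1, Col4a2, Hk2 and Grb10.

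Metabolic genes and genes used by every cell mostly had more bases in D-EPSCs as listed, without more calls than loci in general. At loci with at least 1 kb, D-EPSC calls were 4 of 17 for glycolysis and 3 of 12 for the TCA cycle and respiration. They were 2 of 12 for translation initiation and 2 of 12 for ubiquitous genes, all below the 29.7% of all such loci. Of 18 glycolysis genes, 14 had more in D-EPSCs against 4 in L-EPSCs (median 1.98 kb over 17 loci). The counts were 12 and 5 with the widest and 14 and 4 with trimmed D-EPSC peaks. Hk2, a hexokinase gene (chr6:82675019-82724448), was the exception among the calls, with 5.67 kb in D-EPSCs against 16.1 kb in L-EPSCs. Tpi1 (4.61 and 2.07 kb) and Pfkl (1.60 and 0.507 kb) encode glycolytic enzymes and were called for D-EPSCs without being robust. Tigar (2.19 and 0 kb), which encodes a phosphatase that lowers glycolysis, and Pgam1 (2.08 and 0.525 kb) were robust. Tpi1 and the X-linked Pgk1 had start-site peaks in D-EPSCs only.

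Of 18 genes of the TCA cycle and respiration, 11 had more bases in D-EPSCs against 5 in L-EPSCs as listed, which turned to 7 and 9 with the widest and 5 and 11 with trimmed D-EPSC peaks (median 0.711 kb over 12 loci). Idh3a, which encodes a subunit of isocitrate dehydrogenase, had 2.27 and 0 kb, was robust and had a start-site peak in D-EPSCs only. Ogdh (4.40 and 1.60 kb) was robust, and Sdhb (3.17 and 1.47 kb) was not. No locus of this list was called for L-EPSCs as listed. With the widest D-EPSC peaks 4 were, against 2 for D-EPSCs, and with trimmed ones 2 were, against 2. Cs, which encodes citrate synthase, had a start-site peak in D-EPSCs only while its locus held 4.22 and 4.66 kb. Of 14 genes of translation initiation, 11 had more bases in D-EPSCs against 3 in L-EPSCs (median 1.01 kb over 12 loci). With the widest D-EPSC peaks these were 7 and 5, and with trimmed ones 9 and 5. Eif4g1 (4.01 and 1.93 kb) and Eif6 (1.53 and 0 kb) were called and neither was robust, and Eif3c and Eif6 had start-site peaks in D-EPSCs only.

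Of 83 genes that match the names of cytoplasmic ribosomal proteins, 80 had a start-site peak in D-EPSCs against 78 in L-EPSCs. Bases were more in D-EPSCs at 74 and in L-EPSCs at 8, against 60 and 22 with the widest and 56 and 26 with trimmed D-EPSC peaks. D-EPSC calls as listed numbered 20 of the 78 loci with at least 1 kb, beside 29.7% of all such loci, and 6 were robust. There was no L-EPSC call as listed or with trimmed D-EPSC peaks, and there were 3 with the widest. Rpl30 (6.50 and 2.25 kb), Rpl23 (6.82 and 2.77 kb), Rps27 (3.86 and 0.549 kb) and Rps21 (6.05 and 2.80 kb) differed most. Start-site peaks in D-EPSCs only lay at Rpl18 and Rpl3l, and the locus of Rpl3l shares its bases with that of Rps2. The median difference over 78 loci was 1.03 kb, near the 0.889 kb of all loci. Of 14 ubiquitous genes, 12 had more bases in D-EPSCs as listed, 8 with the widest and 7 with trimmed peaks (median 0.723 kb over 12 loci). Eef1a1 (6.69 and 2.17 kb), a translation elongation factor gene, was robust and had a start-site peak in D-EPSCs only, and Eef2 (4.92 and 2.17 kb) was not robust. Housekeeping genes thus shared the lean to D-EPSCs of the lists as deposited. The ribosomal protein genes kept it in both equal forms, as the median over all loci with at least 1 kb did.

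Peaks of both lists were next joined across the gaps between near neighbours, which gave 17981 stitched loci. D-EPSCs had more bases in 13017 and L-EPSCs in 4958. A difference of at least 10 kb was found at 72 loci for D-EPSCs and 34 for L-EPSCs. The largest D-EPSC excess lay over Ppp1r9a, which encodes an actin-binding neurabin (chr6:4920595-5009591). D-EPSCs had 38.2 kb there in 17 peaks and L-EPSCs 2.33 kb in 6, with 34.7 kb in ESCs. Spin1, which encodes a reader of histone methylation, had 25.9 and 4.54 kb (chr13:51143329-51225578). Bnc2, a zinc finger gene, had 31.7 and 10.4 kb (chr4:84267193-84337968), with 11.9 kb in ESCs.

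The other D-EPSC loci kept substantial L-EPSC acetylation. Tns3, a focal adhesion gene, had 73.0 and 42.0 kb. Mkrn1 with Dennd2a had 49.8 and 21.4 kb. Mta3, a subunit of the NuRD complex, had 48.0 and 21.5 kb. Etl4 had 63.1 and 39.7 kb, Pitpnc1 with Psmd12 had 60.7 and 37.6 kb, Bcar1 with Cfdp1 had 45.8 and 23.2 kb and Usp7 had 49.2 and 26.7 kb. All 10 had more D-EPSC than L-EPSC bases also in both equal forms, by 9.04 to 27.1 kb with trimmed peaks.

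The largest L-EPSC excess was at Mras (chr9:99288737-99338293), where L-EPSCs had 28.0 kb in 14 peaks and D-EPSCs had no peak, although ESCs had 33.4 kb. It holds the pair of wide peaks whose centres are shown above. H3K4me1 covered 8.04 kb of the 8443-base peak in D-EPSCs against 8.44 kb in L-EPSCs. Arid5b, which encodes a DNA-binding subunit of a histone demethylase, followed the same order, with 0.866 kb in D-EPSCs, 15.7 kb in L-EPSCs and 43.5 kb in ESCs (chr10:67689714-67745986). Enpp6, a choline phosphodiesterase gene, did not: D-EPSCs had 4.98 kb, L-EPSCs 23.9 kb and ESCs 0.696 kb (chr8:48130900-48162792).

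Abat, which encodes GABA transaminase, had 9.82 kb in D-EPSCs against 28.1 kb in L-EPSCs, with 15.6 kb in ESCs. Tbx3 had 3.59 and 18.3 kb over its stitched locus, and Pole4 with Hk2 had 17.2 and 32.8 kb. Sik1, a salt-inducible kinase gene, had 39.7 and 60.7 kb. Zfp706 had 38.4 and 61.0 kb, Zfp184 had 21.2 and 41.8 kb and the locus of 1700001O22Rik, Mettl11a and Asb6 had 26.3 and 53.1 kb. The ESC list is far longer, at 107 Mb, and ESC bases were the most at 8 of these 10 loci, all but Enpp6 and Abat. They were also the most at 7 of the 10 loci with a D-EPSC excess.

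**Figure D4:**
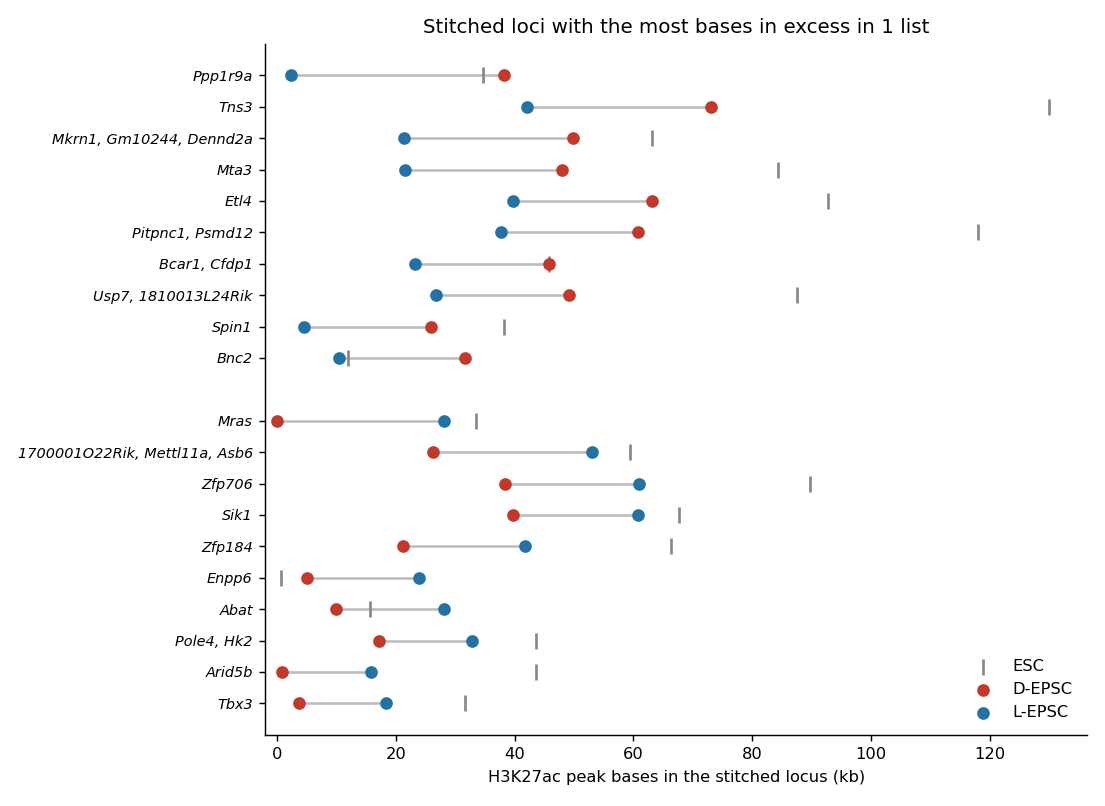
Acetylated bases (kb) in D-EPSC (red), L-EPSC (blue) and ESC (grey bar) at the 10 stitched loci with the largest excess in D-EPSC (upper) and the 10 with the largest in L-EPSC (lower), named by the protein-coding genes they overlap. Ppp1r9a runs from 2.33 kb in L-EPSC to 38.2 kb in D-EPSC, and Mras from 0 in D-EPSC to 28.0 kb in L-EPSC.

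Peaks with no peak of the other list within 10 kb numbered 7314 in D-EPSCs against 2222 in L-EPSCs. The 5 widest of D-EPSCs were 6284 to 8534 bases wide. Beside the peak near Optn these included 1 of 6449 bases, 88726 bases from the start of Paqr3 (chr5:97629341-97635789), 1 of 6338 bases in an intron of Phf21a, which encodes a reader of unmethylated H3K4 (chr2:91981515-91987852), and 1 of 6284 bases 3161 bases from the start of Gm9796 (chr11:95563618-95569901). ESC H3K27ac covered 1.96 to 7.86 kb of each. The L-EPSC ones were 5467 to 8443 bases wide. Beside Mras they lay in Hpse2, which encodes an inactive heparanase (6500 bases, chr19:42963035-42969534), Ccdc33 (5750 bases, chr9:57886643-57892392) and Arid5b (5467 bases, chr10:67689714-67695180). The Ccdc33 peak was the only 1 of these 10 with 0 kb of ESC H3K27ac, and H3K4me1 covered 4.23 kb of it in D-EPSCs against 5.75 kb in L-EPSCs.

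By chromosome, the lists differed most on X. It held 1.30% of the D-EPSC bases and 0.871% of the L-EPSC bases, a log2 ratio of 0.58, while the 19 autosomes ran from -0.18 (chromosome 16) to 0.18 (chromosome 19). The ratio was 0.40 by number of peaks and 0.53 with the widest D-EPSC peaks at equal bases. X carried 54 start sites acetylated in D-EPSCs only (5.79% of its 932 genes) and 1 in L-EPSCs only (0.107%), where the autosomes ran from 6.47% to 11.7% and from 1.1% to 3.18%. The 1 was Dcaf12l1, with 0.360 kb in L-EPSCs and 0 in D-EPSCs, named after its value was seen. At loci, 72 were called for D-EPSCs on X, which is 7.73% of its genes and below the 10.7% to 18.6% of the autosomes. None was called for L-EPSCs, against 1.28% to 3.5% on the autosomes. These shares are over all annotated genes, and fewer were acetylated on X. Of its 932 genes, 162 had a start-site peak in D-EPSCs, against 35.3% of all genes. Of those 162, 54 were in D-EPSCs only, against 153 of 540 on chromosome 5, the autosome with the highest share over all genes. ESCs had 0.677% of their bases there. Nr0b1 and Pgk1, given above, are X-linked.

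**Figure D5:**
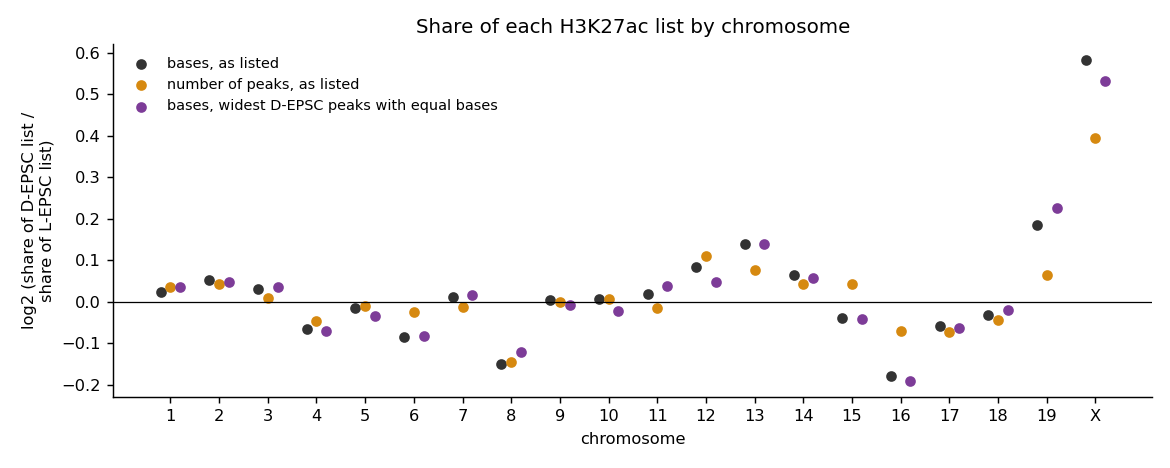
Log2 ratio of the share of the D-EPSC list to the share of the L-EPSC list that lies on each chromosome, by covered bases (black), number of peaks (orange) and covered bases of the widest D-EPSC peaks at equal bases (purple). X lies at 0.58, 0.40 and 0.53, above each autosome.

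Last, short motifs were counted in the central 300 bases of each peak on both strands, as letters only. The AP-1 letters TGANTCA were in 12.1% of unshared D-EPSC peaks, 9.89% of unshared L-EPSC peaks and 10.6% of all peaks of both lists. The octamer ATGCAAAT, read by POU factors such as Oct4, was in 1.61%, 1.17% and 1.46%, and TCF/LEF letters CTTTGAT were in 4.26%, 3.79% and 3.70%. The ESRRB letters TCAAGGTCA had the other order, with 0.909% of unshared D-EPSC, 1.87% of unshared L-EPSC and 1.4% of all peaks. The RAR-RXR direct repeat was in 13 unshared D-EPSC peaks (0.0960%) and 21 unshared L-EPSC peaks (0.311%), against 0.194% of all peaks, and its repeated letters are also within those of ESRRB. STAT letters TTCCNGGAA were in 1.00%, 1.22% and 1.14%.

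ETS letters CCGGAAG were in 3.46% of unshared D-EPSC peaks, 2.56% of unshared L-EPSC peaks and 5.14% of all peaks. The KLF letters GGGNGTGG were in 11.5% of both unshared classes and 13.0% of all peaks. For the TFAP2 letters GCCNNNGGC the shares, in the same order, were 10.8%, 10.1% and 13.2%. Trophoblast-associated TEAD factors read ACATTCC, which was in 4.28%, 4.76% and 4.27%. GATA factors of the endoderm and other lineages read AGATAAG, and 3.38%, 3.78% and 3.17% held it. Zfp281, a zinc finger factor of stem cells, reads CCCCTCCCC, and the shares were 3.56%, 3.08% and 4.26%. Median GC content was 47.0% in unshared D-EPSC peaks, 49.3% in unshared L-EPSC peaks and 49.3% in all, and its part in these shares was not tested. With the widest D-EPSC peaks at equal bases, some of these orders held and others turned. AP-1 letters were then in 12.3% of unshared D-EPSC and 9.63% of unshared L-EPSC peaks, and ESRRB letters in 0.728% and 1.64%. ETS letters turned to 2.47% and 5.43%, and those of TFAP2 to 7.73% and 13.8%. TEAD letters turned to 4.57% and 4.12%, those of GATA to 3.76% and 3.04%, and those of Zfp281 to 3.52% and 3.53%. In the 250 bases before the start, ETS letters were in 15.2% of start sites acetylated in D-EPSCs only, 9.07% of those in L-EPSCs only and 15.3% of all acetylated start sites.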

How the data were processed

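ChIP-seq of H3K27ac and H3K4me1 in ESCs, D-EPSCs and L-EPSCs was read from 6 deposited peak lists, which hold only the position and name of each peak, without score, signal or count. The authors trimmed reads with Trim Galore 0.6.3, aligned them to mm9 with Bowtie2 2.3.5, used SAMtools 1.10 and ran MACS2 in broad mode with the input as control. Thresholds, depth and pooling of the 2 samples per list are not given in the sources used here, and each changes the length of a list and so every count above.

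Genes are GENCODE M1 on NCBIM37, the same assembly as mm9, on 20 chromosomes. Overlap was at least 1 base, start sites were widened by 1 kb and loci by 10 kb. Interval code in Python with numpy was tested on simulated data. Named were the 10 stitched loci with the largest excess per list, the 5 widest isolated peaks per list and, per gene list, up to 4 called loci per direction and the start sites acetylated in 1 list only. Sequences shown end at the start site and leave out the transcribed bases after it, unlike the plan. Members, lists and tests were chosen with earlier results of these data known. The alternatives are in the closing section. Some items that these rules name are not reported here.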

Additional observations from a re-analysis of the deposited data

How the results depend on the processing

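No paired analysis was possible because each state and mark had 1 peak list, so no replicate could be left out either. Equal bases from the widest D-EPSC peaks gave 2472 D-EPSC and 14094 L-EPSC peaks without a counterpart, 331 and 2870 start sites in 1 list only, and 1631 and 1316 called loci. Trimmed D-EPSC peaks at equal bases gave 1640 and 772 loci. The widest 50% of each list left 6652 and 3422 peaks without a counterpart, and peaks of at least 500 bp left 4384 for L-EPSCs. With the widest D-EPSC peaks at equal number, 746 start sites were in L-EPSCs only. Genes without flanks gave 1636 D-EPSC loci and a 3-fold limit gave 1843. The cause of each shift beyond the smaller number of peaks, bases or loci counted was not tested. The other alternatives for the 6 counts stayed within 1.5 times. With the widest D-EPSC peaks, the difference at Klf5, Mapk9 and Rpl35 turned to -0.05, -0.34 and -0.064 kb. Depth and peak thresholds were unknown, so a missing peak limits each statement on 1 list only.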
